A study of Homo sapiens with 21 samples.

Results

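The genes described here are those that HNRNPK PAR-CLIP covered well enough to compare the cytoplasmic and nuclear fractions in both *KRT19* genotypes. They were the genes with at least 50 reads in each of the 4 deposited cluster tables, 5208 of the 18322 genes with a cluster in any table. For each gene, the reads were taken as a share of all gene-assigned reads of a library, with 1 read added. The log2 ratio of the cytoplasmic to the nuclear share was formed in *KRT19* KO cells and in parental cells, and the difference between both ratios, KO minus parental, is called the shift. A positive shift means that the gene's binding lay more on the cytoplasmic side in *KRT19* KO cells, and a negative shift that it lay more on the nuclear side. The minimum leaves out genes that were low in any library, among them genes that would have had some of the most extreme shifts. SLCO5A1, for example, had 323758 reads in parental cytoplasm, 15 in KO cytoplasm and none in either nuclear library, and MT-ND2 had none in parental cytoplasm and 3788, 67698 and 42100 in the other libraries. The 206 genes whose smallest library held 50 to 54 reads had a median shift of -0.19, and the 238 genes left out with 45 to 49 reads one of -0.01.

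MDA-MB-231, a widely used cell line from a triple-negative breast cancer, was studied unmodified (parental) and with *KRT19* removed by CRISPR/Cas9 (*KRT19* KO). In PAR-CLIP, a crosslinking and immunoprecipitation assay that uses a photoreactive nucleoside, cells are fed 4-thiouridine (4SU) and irradiated with UV, which ties bound protein to the RNA at 4SU and makes reverse transcription read it as C in place of T. Cytoplasmic and nuclear fractions of both lines gave 1 library each, precipitated with an antibody against HNRNPK and its variant HNRNPJ. The 4 libraries were thus parental cytoplasm, parental nucleus, KO cytoplasm and KO nucleus, and since no condition had a replicate, no difference below has a replicate check and no test was run. Intervals in the text are 95% intervals of counting error only. The paper reports that possible PCR duplicates were taken out with the help of molecular barcodes (UMIs). Whether each counted read stands for an independent molecule was not checked here, and the intervals are too narrow if it does not.

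HNRNPK is an RNA-binding protein with 3 KH domains that prefers runs of C next to U. It moves between nucleus and cytoplasm, takes part in splicing in the nucleus and binds 3'UTRs of mature mRNAs in the cytoplasm, where it influences translation and decay. Introns are removed in the nucleus, so that intronic reads mark binding to unspliced RNA and 3'UTR or coding reads can come from precursor or mature RNA. *KRT19* encodes keratin 19, a type I keratin of simple epithelia that builds intermediate filaments with a type II partner.

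Gene-assigned reads numbered 4650388 in parental cytoplasm, 2945340 in parental nucleus, 5495078 in KO cytoplasm and 2562884 in KO nucleus. The libraries differed in more than depth. Unique reads made up 30.9%, 20.0%, 45.6% and 19.0% of the reads in clusters, in the same order, and reads with a T-to-C change 66.4%, 72.9%, 59.6% and 76.7%. The parental cytoplasmic table held clusters on 25 reference sequences and none on unplaced contigs or patches, whereas the other 3 tables held 221 to 269 clusters there. In 215 bins of 100 kb, parental cytoplasm had at least 5 clusters and the other libraries had none, and 11 of the 5208 genes had reads in such bins, of which 10 shifted to the nucleus at least 2-fold. A site is used here for clusters that overlap on the same strand in any library. Of 508 sites with at least 100 reads in each of the 3 other libraries, 115 (22.6%) had no cluster in KO nucleus. The same was true of 38 of 281 sites (13.5%) for parental cytoplasm, 46 of 334 (13.8%) for parental nucleus and 36 of 324 (11.1%) for KO cytoplasm. A site without a cluster is not a measured zero, because the tables list only positions that passed cluster calling.

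*KRT19* could not be used to check the genotype. It had 7 reads in parental cytoplasm, 5 in KO cytoplasm and none in either nuclear library. The fraction labels were checked with long noncoding RNAs listed as retained in the nucleus. Of 10 such genes with enough reads, 7 lay on the nuclear side in both genotypes and 3, MALAT1, TUG1 and OIP5-AS1, on the cytoplasmic side in both. Where each listed RNA resides in these cells was not measured, so that this tally is only a loose check of the labels. The 7 include GAS5 and SNHG1, whose most-read sites lay in snoRNAs. For GAS5, that site held 361 of 580 reads in parental nucleus and 483 of 878 in KO nucleus. For SNHG1, it held 464 of 574 reads in KO nucleus and had no cluster in parental nucleus. The side of these genes is thus not that of the long noncoding RNA alone. NEAT1, the nuclear RNA of paraspeckles, had 1257 reads in parental cytoplasm, 2791 in parental nucleus, 1267 in KO cytoplasm and 3551 in KO nucleus, and its log2 ratio of cytoplasm to nucleus was -1.81 in parental and -2.59 in KO cells. KCNQ1OT1, a nuclear antisense transcript of an imprinted locus, also lay on the nuclear side, at -1.02 and -1.70. MALAT1, a nuclear speckle RNA, had 6825, 3140, 5236 and 1783 reads in the order given above and ratios of 0.46 and 0.45. Its most-read site had 4833 reads in parental and 3572 in KO cytoplasm and no cluster in either nuclear library, and without this site the ratios were -1.32 and -1.20, on the nuclear side. TUG1 had ratios of 0.55 and 1.99 and OIP5-AS1 of 0.38 and 0.91.

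The genotypes differed most plainly in the part of the gene that was bound. Introns took 50.6% of gene-assigned reads in parental cytoplasm and 80.4% in parental nucleus, against 26.0% in KO cytoplasm and 75.7% in KO nucleus. The nuclear shares were thus close to each other, and the drop lay in the cytoplasm. A single intron cluster of SLCO5A1 held 6.96% of the reads of parental cytoplasm and enters each share of that library. Without SLCO5A1, introns took 46.9% and 3'UTRs 40.6% of parental cytoplasmic reads. The log2 ratio of KO to parental cells was -0.96 for the intron class in cytoplasm and -0.09 in nucleus, which gave a shift of -0.87. 3'UTRs moved the other way, from 37.8% of reads in parental cytoplasm to 53.6% in KO cytoplasm, while the nuclear libraries held 6.42% and 6.89%. The shift of the 3'UTR class was 0.40. Intervals of counting error for the intron and 3'UTR classes span less than 0.05, and the spread between repeat libraries is unknown.

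**Figure D1:**
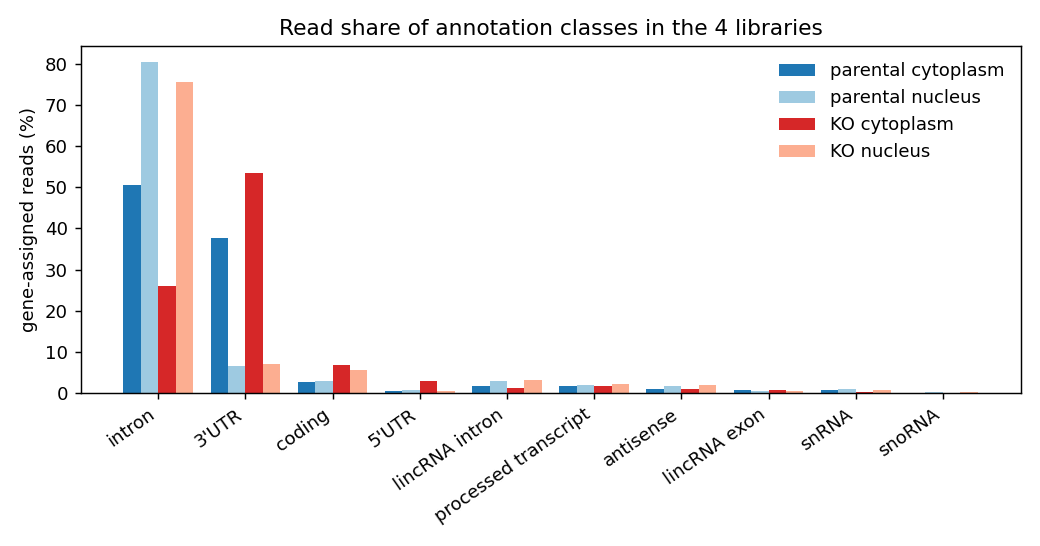
Share of gene-assigned reads (%) in 10 annotation classes, with 1 bar per library. Intron reads are 50.6% in parental and 26.0% in KO cytoplasm, 3'UTR reads 37.8% and 53.6%, and the nuclear bars of both genotypes stand close together in these classes.

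Coding reads made up a larger share in both fractions of KO cells, with 2.71% in parental and 6.65% in KO cytoplasm and 2.82% and 5.55% in nucleus, for a shift of 0.32. Part of this class came from genes of the mitochondrial genome. Without them and without their nuclear MTRNR2L copies, coding reads were 2.39% in parental cytoplasm, 1.83% in parental nucleus, 5.07% in KO cytoplasm and 1.98% in KO nucleus, and the shift was 0.97. The 5'UTR class had a shift of 3.09, which rested on MTRNR2L12, a nuclear copy of the mitochondrial 16S rRNA gene, with 17 reads in parental cytoplasm, 8387 in parental nucleus, 124045 in KO cytoplasm and none in KO nucleus. Reads of MT-RNR2 and its MTRNR2L copies cannot be told apart reliably, and MT-RNR2 itself had 23604, 0, 196919 and 24434 reads. Without these genes the 5'UTR shift was 0.33. Several classes of noncoding RNA had negative shifts as well. The shift was -0.59 for introns of lincRNAs, -0.38 for antisense transcripts, -0.97 for snRNAs and -1.74 for snoRNAs, the guides of RNA modification in the nucleolus and Cajal body. snoRNA reads were 3027 in parental and 1107 in KO cytoplasm and 7864 and 7074 in the nuclear libraries of parental and KO cells. Exons of lincRNAs had a shift of 0.17. How much nuclear RNA each cytoplasmic fraction held was not measured, and its part in these differences was not tested.

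Over the 5208 genes, the median ratio of cytoplasm to nucleus was -0.52 in parental and -0.84 in KO cells on the log2 scale. The ratios were spread more widely in KO cells, with quartiles of -1.60 and 0.37 against -1.07 and 0.20. The shift had a median of -0.28 and quartiles of -0.86 and 0.42. With shares of all reads in clusters in place of gene-assigned reads, the median was -0.12, so that the zero of the scale itself is uncertain by about this difference. The shift was at least 2-fold to the cytoplasm in 626 genes (12.0%) and at least 2-fold to the nucleus in 1059 genes (20.3%). These percentages are the background against which the gene groups below are read. The balance depends on the zero of the scale, since with shifts centred on their median 903 genes lay at least 2-fold on the cytoplasmic and 623 on the nuclear side. The counting interval lay above 0 for 1409 genes and below 0 for 2487. A change in bound reads and a change in the RNA present in a fraction cannot be told apart here, since RNA levels were not analysed. Most genes kept their side. In both genotypes 3163 genes were higher in the nucleus and 1171 higher in the cytoplasm, while 409 went from the cytoplasmic side in parental cells to the nuclear side in KO cells and 465 the opposite way.

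**Figure D2:**
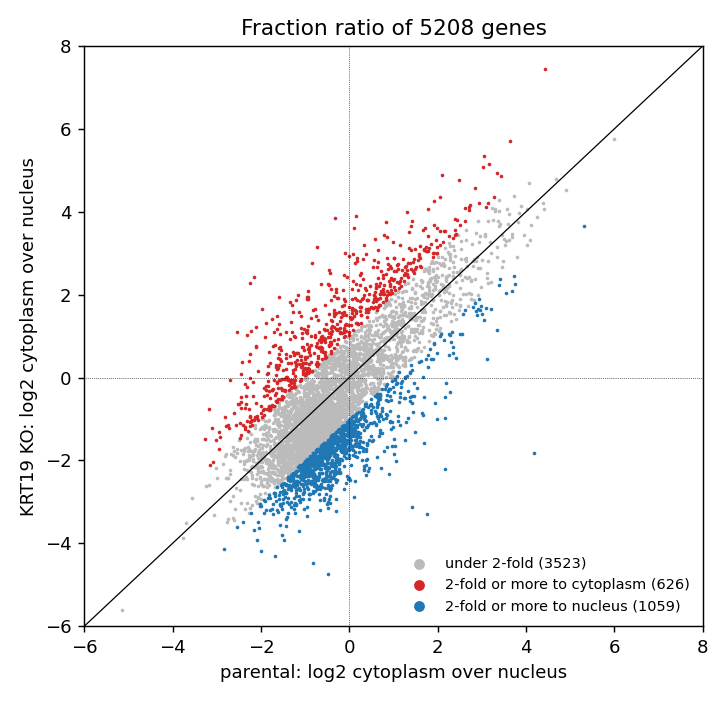
Log2 ratio of cytoplasmic to nuclear read share of each of 5208 genes in parental cells (x axis) and *KRT19* KO cells (y axis), with the line of equal ratios. The 626 genes at least 2-fold above the line are red and the 1059 genes at least 2-fold under it are blue, and the cloud is steeper than the line because ratios of both signs were larger in KO cells.

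The change lay mainly in the cytoplasmic libraries. Among the 626 genes shifted to the cytoplasm, the median log2 ratio of KO to parental share was 1.03 in cytoplasm and -0.54 in nucleus, and 320 genes had at least 2-fold more of the cytoplasmic reads while 166 had at least 2-fold less of the nuclear reads. Among the 1059 genes shifted to the nucleus, the medians were -1.04 in cytoplasm and 0.40 in nucleus, with 560 genes at least 2-fold lower in cytoplasm and 214 at least 2-fold higher in nucleus. Both groups differed in the kind of binding. Genes shifted to the cytoplasm had a median of 33.8% of their reads in 3'UTRs and 51.3% in introns, genes shifted to the nucleus 3.90% and 88.7%, and the other genes 12.7% and 75.8%.

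The shift followed the share of 3'UTR reads step by step. In the 2505 genes with at most 10% of reads in 3'UTRs, the median shift was -0.58, and 6.15% shifted at least 2-fold to the cytoplasm and 29.1% to the nucleus. The median was -0.21 in the 1214 genes with over 10 and up to 30%, 0.12 in the 834 genes up to 50%, 0.29 in the 454 genes up to 70% and 0.48 in the 152 genes up to 90%. In the 49 genes with more than 90% of reads in 3'UTRs, the median shift was 1.06, and 51.0% shifted at least 2-fold to the cytoplasm and 4.08% to the nucleus. By the share of intron reads the order was less even. The 437 genes with at most 10% of reads in introns had a median of -0.31, with 17.2% shifted to the cytoplasm and 24.0% to the nucleus. The median was 0.34 in the 239 genes with over 10 and up to 30% and fell to -0.69 in the 1517 genes with more than 90%. The shares and the shift come from the same reads, and the order is a description of these libraries.

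The same contrast was found inside genes, where library totals cannot play a part in the difference. In 350 genes, introns and 3'UTRs each had at least 50 reads in each library. Their intron reads had a median shift of -0.65 and their 3'UTR reads one of 0.38, and the 3'UTR shift was above the intron shift in 265 of 350 genes. The median difference within a gene was 0.87, with quartiles of 0.06 and 1.94. In cytoplasm, the median log2 ratio of KO to parental share was -0.63 for the introns and 0.41 for the 3'UTRs of these genes, while in nucleus it was -0.07 and 0.07. Limited to sites with a cluster in all 4 libraries, 54 genes could be compared at the same minimum, and the 3'UTR was above the intron in 40 of them, with a median difference of 0.51. With the most-read site of each class left out, 317 genes still had reads of both classes in each library, and the 3'UTR was above the intron in 228 of them, with a median difference of 0.92.

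**Figure D3:**
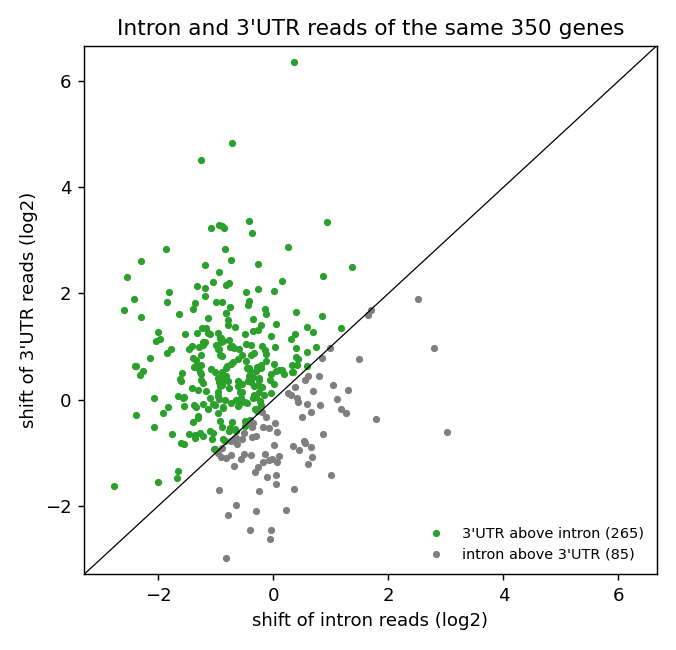
Shift (log2) of the intron reads (x axis) and of the 3'UTR reads (y axis) of the same 350 genes, 1 point per gene, with the line of equal shifts. The 3'UTR shift is above the intron shift in 265 genes (green), and most points lie left of 0 on the intron axis.

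Single genes with many reads showed both movements side by side. PAWR, a pro-apoptotic regulator, had 1434 intron reads in parental cytoplasm, 1405 in parental nucleus, 854 in KO cytoplasm and 1048 in KO nucleus, a shift of -0.77. Its 3'UTR reads were 9458, 725, 30734 and 379 in the same order, a shift of 2.19. Much of the latter rested on its most-read site, which had 352 reads in parental nucleus, 14554 in KO cytoplasm and no cluster in the other libraries. Without this site the 3'UTR shift of PAWR was 0.31. CBX5, which encodes heterochromatin protein 1 alpha, had 225, 203, 183 and 278 intron reads (shift -1.19). Its 3'UTR reads were 2551, 271, 10563 and 391 (shift 1.08). The whole gene had a shift of 0.20 on sites found in all 4 libraries. For CDK6, a G1 cyclin-dependent kinase, the intron shift was -0.61 and the 3'UTR shift 0.94, while the whole gene had 0.62, and 0.05 on sites found in all 4 libraries. TEAD1, a transcription factor of the Hippo pathway, had an intron shift of -0.78 and a 3'UTR shift of 0.23, and the whole gene came to -0.32. EGFR, the epidermal growth factor receptor gene, had an intron shift of -1.13, and its 3'UTR stood at -0.18. LMNB2, which encodes lamin B2, went against the trend, with an intron shift of 2.79 and a 3'UTR shift of 0.98. Its intron shift rested on a site with no cluster in parental cytoplasm and 449, 511 and 405 reads in the other libraries, and was 0.15 without it.

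Sites are shown for genes whose binding carried these differences, first those with a cluster in all 4 libraries. For each gene the site with the most reads was taken, with up to 30 bases from the cluster sequence of the library with the most reads there, in the RNA's sense and in DNA letters. Capitals mark each match to the C-rich element T or A, then T, C or A, then CCC, which 31.5% of all gene-assigned clusters hold. Positions are on hg19, and each sequence shown was equal to GRCh37 at its position.
SRSF2 3'UTR, chr17:74730385-74730414, minus strand: ataaatacacctttttTTCCCtcTTCCCCc
CBX5 3'UTR, chr12:54634365-54634394, minus strand: aagagTCCCCaaaatattaatgctcTTCCC
LMNA 3'UTR, chr1:156109129-156109158, plus strand: aatcctaatttctcctcccttccttTTCCC
TEAD1 3'UTR, chr11:12959494-12959523, plus strand: aaaacttcACCCCttatccttaacatatat
HNRNPK intron, chr9:86594259-86594288, minus strand: tttcttatccaactcttctcccaccacacc
ITGB1 intron, chr10:33210838-33210867, minus strand: tctccaatctttttccTCCCCaaaatatcc
HNRNPM coding, chr19:8530316-8530343, plus strand: atcctaaataATCCCaacATCCCaaatg
The SRSF2 site had 5210 reads in parental cytoplasm, 621 in parental nucleus, 8293 in KO cytoplasm and 446 in KO nucleus, and the site alone shifted by 0.71. The CBX5 site had 886, 46, 2064 and 49 reads, a shift of 0.69, and the TEAD1 site 1284, 100, 2136 and 79 reads, a shift of 0.63. These 3'UTR sites thus had more reads in KO than in parental cytoplasm, while their nuclear counts differed less. The LMNA site had 694, 258, 392 and 27 reads, and its shift of 1.95 came from the low count in KO nucleus. The ITGB1 intron site had 153, 140, 71 and 79 reads and a shift of -0.72.

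The next sites had no cluster in at least 1 library.
RACGAP1 3'UTR, chr12:50383880-50383909, minus strand: ttattaaaactatatatatcTCCCCttcct
SSR1 3'UTR, chr6:7289408-7289437, minus strand: atatgaaacctaatccTACCCCctttttta
NUCKS1 3'UTR, chr1:205683621-205683650, minus strand: tccataaattacacttttttttttcaaatt
GATAD2B 3'UTR, chr1:153780749-153780778, minus strand: cttttttctttcctccctTACCCCaaattc
The RACGAP1 site had no cluster in parental cytoplasm and 946 reads in parental nucleus, 6598 in KO cytoplasm and 400 in KO nucleus. RACGAP1, a GTPase-activating protein of cytokinesis, had a shift of 4.52, which was 0.07 on sites with a cluster in all 4 libraries. The SSR1 site had 5885 reads in KO cytoplasm and no cluster elsewhere. SSR1, a subunit of the translocon-associated protein complex of the endoplasmic reticulum, shifted by 2.30, and by 0.64 on sites found in all 4 libraries. The NUCKS1 site had 7763, 139 and 21287 reads and no cluster in KO nucleus. NUCKS1, a nuclear casein kinase substrate, shifted by 0.86, and by 0.08 on sites in all 4 libraries. The GATAD2B site had 1066 reads in parental cytoplasm and no cluster elsewhere. The gene's shift was -5.05, and -4.33 without this site, but 89.9% of the parental cytoplasmic reads of GATAD2B lay in bins with clusters in that library alone.

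Such gaps were common among the shifted genes. The site with the most reads had a cluster in all 4 libraries in 160 of the 626 genes shifted to the cytoplasm (25.6%), in 301 of the 1059 genes shifted to the nucleus (28.4%) and in 33.8% of the other genes. In genes shifted to the cytoplasm, that site lacked a cluster in parental cytoplasm in 38.7% and in KO nucleus in 47.0% of genes, against 3.99% for KO cytoplasm. Parental nucleus lacked it in 33.7%. In genes shifted to the nucleus, the site lacked a cluster in parental cytoplasm in 14.7%, in parental nucleus in 32.7%, in KO cytoplasm in 32.1% and in KO nucleus in 28.6% of genes, while in the other genes these were 18.1%, 31.2%, 12.2% and 38.1%. On sites with a cluster in all 4 libraries, 1220 genes kept at least 50 reads in each. Of the 116 genes among them that had shifted to the cytoplasm, 96 had a shift above 0 on these sites and 60 one of at least 2-fold. Of the 178 that had shifted to the nucleus, 161 were under 0 and 64 at least 2-fold. The direction thus held for most of these genes and the size for fewer. Requiring a cluster in each library also removes sites whose binding was absent from 1 of them, and these cannot be told apart from sites missed in calling.

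Among genes with no cluster above 50% of the reads in any library, the highest shifts reported here were those of PPTC7, TCTN3, KMT2D, SYPL1, FEM1B, DVL3, RAB5B, SSH1 and SERINC3, between 2.85 and 3.75. In each of these the most-read site lacked a cluster in at least 1 library. That of FEM1B, for example, had 831 reads in KO cytoplasm and no cluster elsewhere. Apart from KMT2D, none had enough reads to be compared on sites found in all 4 libraries. PPTC7, a mitochondrial phosphatase, had 639 reads in parental cytoplasm, 366 in parental nucleus, 2672 in KO cytoplasm and 83 in KO nucleus, which is a shift of 3.75 (3.38 to 4.11). It rose in cytoplasm and fell in nucleus. RAB5B, a GTPase of early endosomes, had 1005, 598, 4500 and 266 reads and a shift of 2.89 (2.66 to 3.12). KMT2D, a histone H3 lysine 4 methyltransferase, had 655, 1538, 2547 and 479 reads and a shift of 3.20, which was 1.74 on sites found in all 4 libraries. Its ratio of cytoplasm to nucleus went from -1.89 in parental to 1.31 in KO cells. SSH1, a phosphatase that activates cofilin, and CFL1, which encodes cofilin, both stood among the highest shifts. CFL1 had 404, 1148, 1575 and 135 reads and the highest shift of the 5208 genes, 4.60. However, 1 cluster held 96.1% of its reads in parental nucleus, where 1103 reads lay in the 3'UTR. Its most-read site had 275 reads in parental cytoplasm, 1138 in KO cytoplasm and 23 in KO nucleus, and no cluster in parental nucleus. The shift of CFL1 thus leaned on 1 cluster of 1 library. CYP1B1, LEPROT and TROAP, at 4.18, 3.88 and 3.65, likewise had more than 50% of a library's reads in 1 cluster.

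At the other end stood GATAD2B, KIN, NDUFAF5, STARD9, RSU1, NBEA, SUFU, MKLN1-AS1, NASP and TIMMDC1, between -5.05 and -2.63. Most of their reads were intronic, apart from the antisense transcript MKLN1-AS1 and from GATAD2B, which had 2371 reads in its 3'UTR, all in parental cytoplasm, against 1330 in introns. None of these genes had enough reads to be compared on sites found in all 4 libraries. Their most-read sites lacked a cluster in at least 1 library, apart from that of TIMMDC1. KIN, a DNA- and RNA-binding protein, had 471 reads in parental cytoplasm, 111 in parental nucleus, 105 in KO cytoplasm and 430 in KO nucleus, a shift of -4.54 (-4.97 to -4.11). Its most-read site, in an intron, had 104 reads in parental cytoplasm and 177 in KO nucleus and no cluster in the other libraries. RSU1, a Ras suppressor of integrin adhesions, had 759, 445, 55 and 191 reads and a shift of -2.99, and NBEA, a large anchoring protein of vesicle traffic, 444, 345, 64 and 281 reads and a shift of -2.92. Both fell in KO cytoplasm more than in KO nucleus. NASP, a histone chaperone, had 209, 186, 88 and 367 reads and a shift of -2.66. For MKLN1-AS1, 45.4% of the parental cytoplasmic reads lay in bins with clusters in that library alone. The lowest shift of all was that of PRR4 at -6.00, whose 6435 reads in parental cytoplasm stood against 223, 62 and 102 elsewhere, with 34.2% of the former in such bins. Of its nuclear reads, 141 in parental and 87 in KO cells lay on a contig or patch outside the assembled chromosomes. The parental cytoplasmic table held no cluster on sequences of that kind. On chromosome 12 alone the shift of PRR4 was -4.74.

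Of the 10 genes with the most reads among the 5208, 4 shifted at least 2-fold (background 12.0% to cytoplasm and 20.3% to nucleus). SLCO5A1, MT-RNR2, MTRNR2L12 and MT-ND2 had more reads than any of them and did not pass the minimum. YWHAZ, which encodes 14-3-3 zeta, had 38381, 806, 41353 and 840 reads and a shift of -0.39. EXT1, a glycosyltransferase of heparan sulfate synthesis, had 23531, 24044, 13300 and 19228 reads, nearly all intronic, and a shift of -0.94, and the lincRNA RP11-115J23.1 had -0.61. The small RNAs moved apart. RNY1, the Y1 RNA bound by Ro60, had 24985, 737, 31897 and 85 reads and a shift of 3.01, which came from the nuclear libraries. RNU4-2, the U4 snRNA of the spliceosome, had 21906, 9751, 9145 and 9093 reads and a shift of -1.60, which came from the cytoplasmic ones. Each small RNA has near-identical gene copies, so that its reads are uncertain. SRSF2, an SR splicing factor with nearly all of its reads in the 3'UTR, had 9986, 1026, 21674 and 734 reads and a shift of 1.16, and 1.15 on sites found in all 4 libraries.

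**Figure D4:**
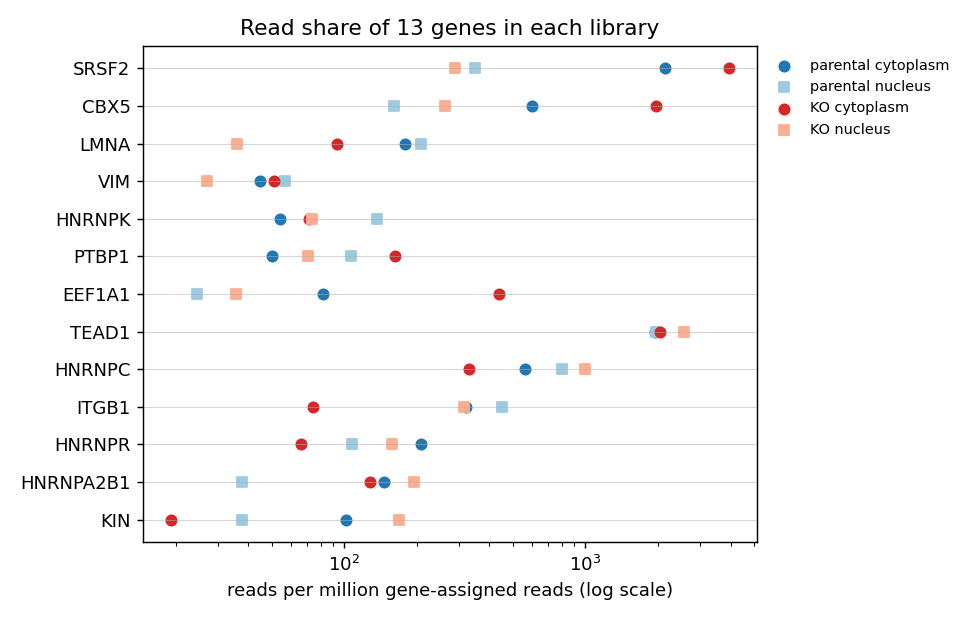
Share of gene-assigned reads (log scale, scaled to reads per 1e6) of 13 genes in the 4 libraries, with circles for cytoplasm, squares for nucleus, blue for parental and red for KO cells. In SRSF2, CBX5 and EEF1A1 the KO cytoplasm stands to the right of the parental cytoplasm, and in ITGB1, HNRNPR and KIN it stands to the left of it.

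Genes of HNRNPK's own family split between both directions. Of 28 genes of hnRNPs and poly(C)-binding proteins, which package nascent RNA and regulate its splicing, 22 had enough reads, with a median shift of -0.41 against -0.28 over all genes. At least 2-fold shifts to the cytoplasm were found in 4 (18.2%, background 12.0%) and to the nucleus in 5 (22.7%, background 20.3%), close to the background. *HNRNPK* had 251 reads in parental cytoplasm, 402 in parental nucleus, 393 in KO cytoplasm and 189 in KO nucleus, a shift of 1.29 (0.95 to 1.63), and 1.60 on sites found in all 4 libraries. These are reads on the *HNRNPK* transcript and give no protein level. PTBP1, the polypyrimidine tract-binding protein, had 233, 313, 892 and 181 reads and a shift of 2.28. HNRNPA1 and HNRNPH1 stood at 1.24 and 1.01, and at 0.22 and 0.61 without the most-read site of each. HNRNPA2B1 had 679, 111, 702 and 497 reads and a shift of -2.55, which came from the nuclear libraries, and its most-read 3'UTR site had no cluster in parental nucleus. HNRNPR, at -2.19, had 964, 317, 364 and 404 reads, but its most-read site had 519 reads in parental cytoplasm and no cluster in KO cytoplasm. Without their most-read sites, HNRNPR and HNRNPA2B1 stood at -1.11 and -1.08. HNRNPD, HNRNPM and HNRNPC had -2.04, -1.43 and -1.10, and the poly(C)-binding PCBP2 had -0.45. HNRNPC had 192 clusters and a shift of -0.79 on sites found in all 4 libraries.

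The SR splicing factors had a median of 0.58 over 8 of 14 genes, with SRSF2 at 1.16, SRSF1 at 0.62 and TRA2B at -1.03. Translation factors, which act on mRNA in the cytoplasm, had a median of 0.17 over 21 of 34 genes. Of these, 5 shifted at least 2-fold to the cytoplasm (23.8%, background 12.0%) and 2 to the nucleus (9.52%, background 20.3%). EIF1, which selects the start codon, had 3414 reads in parental cytoplasm, 239 in parental nucleus, 9594 in KO cytoplasm and 125 in KO nucleus and a shift of 1.98. Its most-read site had 2295, 234 and 4775 reads and no cluster in KO nucleus, and without it the shift turned to -2.73, with 5 reads left in parental nucleus. EEF1A1, the elongation factor that delivers tRNA, had 380, 72, 2418 and 91 reads and a shift of 1.89. EIF2S1, EIF4EBP2 and EIF4A3 stood at 2.27, 2.42 and 1.18, and without the most-read site of each at 1.03, 0.71 and 2.39. Each of these had a larger share in KO than in parental cytoplasm, EIF4A3 the least, with a log2 ratio of 0.42. EIF4G2, a scaffold of cap-independent initiation, rose in both fractions, with 900, 61, 5546 and 824 reads and a shift of -1.55. Its coding reads went the other way, with 816, 54, 5368 and 106 in the same order. The most-read site of EIF4G2, in coding sequence, alone shifted by 1.31. The 9 of 79 ribosomal protein genes with enough reads had a median of 0.18. None shifted at least 2-fold to the cytoplasm (background 12.0%) and 1, RPS10 at -1.56, to the nucleus (11.1%, background 20.3%). EEF1A1, HNRNPA1 and the ribosomal protein genes have many processed copies in the genome, so that their reads are uncertain.

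The list of intermediate filament and lamin genes, the family of *KRT19*, also held DST (-0.45), which is not a filament gene. With DST counted, 9 of 15 members had enough reads, with a median shift of 0.18. LMNA, which encodes lamins A and C, had 831 reads in parental cytoplasm, 610 in parental nucleus, 511 in KO cytoplasm and 92 in KO nucleus and a shift of 1.57. VIM, the mesenchymal filament gene vimentin, had 207, 167, 282 and 69 reads and a shift of 1.27. Both rested on low counts in KO nucleus. KRT80 shifted by 2.02, KRT86, a hair keratin gene with near-identical neighbours, by -1.95 (-0.15 without its most-read site, which had 55 reads in parental cytoplasm, 144 in KO nucleus and no cluster elsewhere), and KRT8, the type II partner of keratin 19, by 0.18 (-0.29 to 0.66). Of 23 actin and tubulin cytoskeleton genes, 14 had enough reads and a median of 0.22. CFL1, TLN1, which encodes the integrin-linked talin 1, and TPM1, a tropomyosin, shifted to the cytoplasm by 4.60, 2.32 and 1.88. The CFL1 value leaned on 1 cluster in parental nucleus. ACTN4, an actinin, had -1.55 that became 0.46 on sites found in all 4 libraries.

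Genes translated at the endoplasmic reticulum had the median of all genes, -0.28, over 38 of 50 members. Of these, 6 shifted at least 2-fold to the cytoplasm (15.8%, background 12.0%) and 3 to the nucleus (7.89%, background 20.3%). ITGB1, the integrin beta 1 gene, had 1488 reads in parental cytoplasm, 1327 in parental nucleus, 409 in KO cytoplasm and 804 in KO nucleus, a shift of -1.58 that was -0.62 on sites found in all 4 libraries. COL4A1, a basement membrane collagen, and APLP2 stood at -1.72 and -1.54, and at 0.21 and -1.36 without the most-read site of each. SSR1 and SLC2A1, the glucose transporter GLUT1, were at 2.30 and 1.57, and TFRC, AXL, CD59 and SDC4 between 1.11 and 1.24, of which TFRC and CD59 stood at -0.44 and -0.23 without their most-read sites. AXL, a receptor tyrosine kinase, turned to -0.83 on sites found in all 4 libraries.

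The study's introduction names 4 genes from earlier work as regulated by HNRNPK, of which 3 had enough reads. None of these 3 shifted at least 2-fold (background 12.0% to cytoplasm and 20.3% to nucleus). MYC did not pass the minimum, with 27, 40, 167 and 37 reads and a shift of 2.25 (1.39 to 3.11). MDM2, which encodes an E3 ubiquitin ligase, had 2575, 624, 2941 and 510 reads and a shift of 0.04 (-0.14 to 0.23). EIF4E, the cap-binding factor, stood at -0.49 (-0.77 to -0.22) and the kinase gene SRC at -0.28 (-0.82 to 0.26). Since the median of all genes was -0.28, EIF4E and SRC were near the middle of the distribution.

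Mitochondrial transcripts had the lowest median of the lists, -2.19 over 7 of 15 genes. MT-ND5, a complex I subunit, had 2625 reads in parental cytoplasm, 369 in parental nucleus, 5068 in KO cytoplasm and 10981 in KO nucleus, a shift of -4.38. MT-CO3 and MT-CYB had -4.25 and -3.63, MT-CO1 had -2.19 (-0.51 without its most-read site), and MT-ND4 had 0.36. The values turned with single sites, since 8497 of the MT-ND5 reads in KO nucleus came from a site with no cluster in the other libraries. MT-CO3 and MT-CYB had shifts of 1.52 and 0.34 on sites found in all 4 libraries. The nuclear-encoded respiratory chain genes had a median of -0.48 over 13 of 76 genes, with SDHD and NDUFS1 at -1.68 and -1.59 (NDUFS1 at -0.82 without its most-read site) and ATP5G2 at 2.24, which was -0.18 without its most-read site. The 10 of 18 genes listed as nuclear-retained long noncoding RNAs had a median of -0.07, with TUG1 at 1.44 and none shifted at least 2-fold to the nucleus (background 20.3%). Among them were GAS5 and SNHG1, whose most-read sites lay in snoRNAs. The 5 genes with the most 3'UTR clusters in parental cytoplasm had a median of 0.62, and the 5 with the most clusters of any kind, which include FAM155A at -1.15 and PTPRM at -0.79, one of -0.79.

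**Figure D5:**
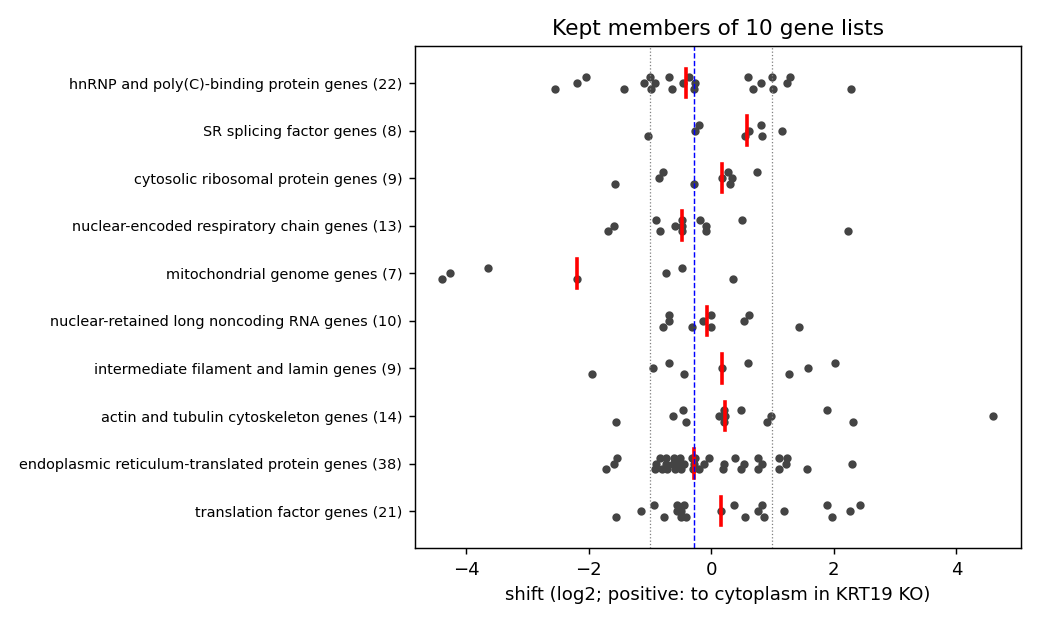
Shift (log2) of each gene with enough reads in 10 gene lists, 1 point per gene, with the list's median as a red bar, the median of all 5208 genes (-0.28) as a dashed line and 2-fold shifts as dotted lines. Most lists spread over both sides, and the mitochondrial genome genes have the lowest median, -2.19.

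The C-rich element was nearly as frequent in the intron clusters of shifted genes as in those of other genes. It was found in 32.2% (31.6 to 32.8%, Wilson interval) of 22702 intron clusters of genes shifted to the cytoplasm, in 31.9% (31.6 to 32.2%) of 93554 intron clusters of genes shifted to the nucleus and in 31.5% of those of the other genes. In 3'UTRs it was found in 28.5% (27.6 to 29.5%) of 8988 clusters of genes shifted to the cytoplasm and in 24.5% (23.4 to 25.7%) of 5291 clusters of genes shifted to the nucleus. The median cluster length was 29 and 28 bases, and the share of C in 3'UTR clusters 25.0% and 24.0%. Between libraries, the element was more frequent in nuclear than in cytoplasmic 3'UTR clusters in both genotypes, with 24.1% in parental cytoplasm, 33.0% in parental nucleus, 24.6% in KO cytoplasm and 33.3% in KO nucleus. Within a fraction, the genotypes thus differed by less than 1 percentage point in 3'UTR clusters. In intron clusters the element was found in 30.2%, 32.3%, 31.4% and 32.6%, in the same order.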

How the data were processed

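The authors collapsed reads, aligned them to hg19 and ran PARpipe, whose PARalyzer step calls clusters, and deposited raw read counts per cluster, with unique reads, T-to-C reads, sequence, annotation class and gene name, per library and without normalization. The submitters' processing notes name bcl2fastq 2.20.0. The deposited score, fraction and log10 columns were not used. The 17 RNA-seq samples were not analysed here, so that RNA levels were not set beside binding.

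Reads were summed per gene or class and library, with a minimum of 50 reads in each of the 4 libraries, a pseudocount of 1 read and a 2-fold limit. Depth is given in the text, and intervals of the shift are 95% Poisson intervals by the delta method. With 1 library per condition no test was possible. Named genes were *KRT19*, the 10 highest and 10 lowest shifts without a cluster over 50% of a library's reads, the 5 highest and 5 lowest with one, the 10 genes with the most reads, and members of gene lists. Some items that this rule covers are not reported here. Members and lists were chosen with earlier results of these data known. Within-gene examples, such as LMNB2 and EGFR, were picked after their values were seen.

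Alternatives covered the kind of read, minimum, pseudocount, cluster size, largest clusters, totals, centring and exonic classes. Sites in all 4 libraries, leaving out mitochondrial and *SLCO5A1* reads, leaving out bins with clusters in parental cytoplasm alone, and leaving out the most-read site of a gene or class were chosen after seeing the data. The calculation of the shift was tried on simulated counts, and no result above rests on them. Python 3.11.15 with pandas 2.3.3, numpy 2.4.6, scipy 1.17.1 and matplotlib 3.10.9 was used.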

Additional observations from a re-analysis of the deposited data

Results flagged for a closer look

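Annotation classes, genes named for an extreme shift or for the most reads, and members of the gene lists with a shift of at least 2-fold are given here when binding was higher in 1 fraction in parental cells and in the other fraction in *KRT19* KO cells, each beyond counting error. None of these differences was tested, since each rests on 1 library per condition.

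From the nuclear side in parental to the cytoplasmic side in KO cells went the coding class (shift 0.32) and the 5'UTR class (3.09), the latter through MTRNR2L12. Neither class changed side without the mitochondrial and MTRNR2L genes. The ratios in parental and KO cells were then 0.39 and 1.36 for coding reads and 0.25 and 0.59 for 5'UTR reads. On sites in all 4 libraries, the coding ratios were -0.50 and -0.004. Among genes without a dominant cluster, TCTN3 (3.53), KMT2D (3.20), SYPL1 (3.02), DVL3 (2.90), SSH1 (2.85) and SERINC3 (2.85) went from the nuclear to the cytoplasmic side. Genes with more than 50% of a library's reads in 1 cluster were CFL1 (4.60), RACGAP1 (4.52), CYP1B1 (4.18), LEPROT (3.88) and TROAP (3.65). From the lists came PTBP1 (2.28), TLN1 (2.32), TPM1 (1.88), LMNA (1.57) and VIM (1.27).

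The opposite way went PRR4 (-6.00), GATAD2B (-5.05), KIN (-4.54), MT-ND5 (-4.38), AP3S2 (-3.27), NDUFAF5 (-3.22), STARD9 (-3.07), SUFU (-2.73), MKLN1-AS1 (-2.70) and TIMMDC1 (-2.63). Listed genes among them were HNRNPA2B1 (-2.55), HNRNPR (-2.19), HNRNPD (-2.04), NDUFS1 (-1.59) and TRA2B (-1.03), and the small RNA RNU4-2 (-1.60). For PRR4, GATAD2B and MKLN1-AS1, 34.2%, 89.9% and 45.4% of the parental cytoplasmic reads lay in bins without clusters in the other libraries. On its chromosome alone, PRR4 had 62 reads in KO cytoplasm and 15 in KO nucleus. Counted so, it stayed on the cytoplasmic side in KO cells, with a shift of -4.74.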

How the results depend on the processing

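The intron class kept a negative shift and the 3'UTR and coding classes a positive one under each alternative run, while the median over genes turned to 0.18 when exonic classes alone were counted (682 genes, of which 169 shifted at least 2-fold to the cytoplasm and 90 to the nucleus). With unique reads, 2103 genes remained, with 122 and 457 shifted, a median of -0.46 and class shifts of -0.84 for introns, 0.38 for 3'UTRs and 0.26 for coding sequence. T-to-C reads gave a median of -0.21 and class shifts of -0.88, 0.58 and 0.60. A minimum of 100 reads gave 356 and 694 shifted genes and a median of -0.31. Clusters of 10 or more reads gave a median of -0.31 and class shifts of -0.98, 0.36 and 0.30. Without the largest clusters, the median was -0.35 and the class shifts -0.71, 0.36 and 0.43. Shares of all reads gave a median of -0.12 and class shifts of -0.71, 0.56 and 0.47, and centring on the median left 623 genes shifted to the nucleus and put 903 on the cytoplasmic side. Sites in all 4 libraries left 109 and 197 shifted genes, a median of -0.25, class shifts of -0.39, 0.26 and 0.49 and a difference between 3'UTR and intron within genes of 0.51. Without mitochondrial and *SLCO5A1* reads, the median was -0.33 and the class shifts -0.71, 0.35 and 0.92, and without bins seen in parental cytoplasm alone the class shifts were -0.88, 0.42 and 0.34. The cause of these differences was not tested, apart from the smaller number of genes that a stricter minimum or fewer clusters leave. Signs could be compared only for shifted genes that still passed the minimum under an alternative. On sites in all 4 libraries, 37 had the other sign, among 116 genes shifted to the cytoplasm and 178 to the nucleus. Without their largest cluster it was 17, among 416 and 826. With exonic classes it was 6, among 152 and 39, and with T-to-C reads 1, among 536 and 928. Among the genes named by rule, those with such a shift that changed sign were MT-CO3 (1.52), MT-CYB (0.34), ACTN4 (0.46) and AXL (-0.83) on sites in all 4 libraries, AXL also with exonic classes (-0.21), and CD59 without its largest cluster (-0.58). Without the most-read site of a gene, EIF1 (-2.73), TFRC (-0.44), CD59 (-0.23), ATP5G2 (-0.18), COL4A1 (0.21) and MT-CO3 (0.71) changed sign among the genes named with a shift of at least 2-fold, and RACGAP1 came to 0. AXL (0.60), SDC4 (0.52), HNRNPA1 (0.22), HNRNPH1 (0.61), KRT86 (-0.15), MT-CO1 (-0.51), NDUFS1 (-0.82), PAWR (0.61), SSR1 (0.96) and EIF4EBP2 (0.71) no longer reached 2-fold. No paired analysis was possible because each condition had 1 PAR-CLIP library. Depth limits genes with few reads, and *KRT19* could not be measured.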
